A study of Mus musculus with 4 samples.

Results

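The 10 genes described here are Socs1, Socs2, Socs3, Cish, Jak1, Jak2, Il4ra, Ifngr1, Ifnar1 and Ifnar2, which make up feedback inhibitors, kinases and receptor chains of cytokine signalling. They were taken by symbol, and all 10 were found among the 14432 genes of the deposited count table. They were followed over 4 single-cell libraries of mouse bone marrow-derived macrophages, which are primary cells that grow out of marrow in M-CSF (here 50 ng/mL), from mice of 8 to 12 weeks. The groups were cells labelled Trpv4-null given 100 ng/mL lipopolysaccharide (LPS, part of the outer membrane of Gram-negative bacteria and the ligand of TLR4) for 24 h, wild-type C57BL/6J cells given the same LPS, untreated cells labelled Trpv4-null, and untreated wild-type C57BL/6J cells. The labels do not describe the Trpv4 allele. Each group was 1 library. The design text speaks of 3 mice per genotype and 12 samples, while the cell annotation names no mouse, so group differences have no replicates behind them and no test was made.

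Cytokine receptors of this class have no kinase of their own. Binding of a ligand brings receptor chains together, the attached Janus kinases (JAKs) phosphorylate each other, the receptor and transcription factors of the STAT family, and the STATs then enter the nucleus. SOCS proteins and Cish are themselves among the genes that STATs switch on, and they shut the pathway down by blocking the kinase, by covering the docking sites on the receptor or by bringing in a ubiquitin ligase. In macrophages, interferons, IL-4, IL-6 and IL-10 signal this way, and LPS reaches the pathway partly through the type I interferon and other cytokines that the cells themselves release.

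The libraries held 6565 cells in the LPS library labelled Trpv4-null, 8288 in the LPS wild-type library, 5485 in the untreated library labelled Trpv4-null and 7028 in the untreated wild-type library. Depth differed with treatment. The median cell had 16041 and 16673.5 UMIs (unique molecular identifiers, 1 per captured mRNA molecule) in the LPS libraries labelled Trpv4-null and wild type, against 7893 and 5660.5 in the untreated libraries in the same order of genotype. Trpv4 itself did not follow the label. It stood at 9.62 CPM (UMIs of the gene per 1000000 UMIs) in the LPS library labelled Trpv4-null and at 2.07 in the LPS wild-type library, and at 8.60 and 5.83 CPM in the untreated libraries labelled Trpv4-null and wild type. Counts taken outside a deleted stretch do not check a label, and which stretch was deleted is not given in the sources used here. Every genotype difference below is therefore one between libraries as labelled. All 14 macrophage markers had at least 20 CPM in all 4 libraries. Marker lists of other cells differed with LPS in both genotypes. Over the LPS libraries against the untreated ones, the 7 monocyte markers in the table summed to 864 to 964 against 70.0 to 76.4 CPM. After LPS, Ms4a4c alone had 935 CPM in cells labelled Trpv4-null and 825 CPM in wild-type cells. In untreated cells the highest of these markers was Ccr2, at 27.9 and 34.1 CPM in the same order of genotype. Without Ms4a4c, the monocyte list therefore summed lower after LPS than untreated. The 7 neutrophil markers summed to 41.7 to 52.5 against 186 to 336 CPM, the 4 lymphocyte markers to 2.72 to 3.89 against 141 to 142 CPM, mostly Ighm in untreated cells, and the 8 dendritic cell markers to 186 to 202 against 349 to 367 CPM, mostly Irf8. The median mitochondrial share of a cell was 3.05% to 3.19% against 6.06% to 6.13%. The part of these in the LPS ratios below was not tested. Any pair of libraries shared between 7 and 16 cell barcodes, at most 0.244% of the smaller library.

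Values are UMIs summed over all cells of a library and scaled to CPM. A ratio between libraries carries an exact 95% interval that covers counting error only, and a log2 ratio has 1 CPM added to both levels. A gene was compared where its higher library had at least 20 CPM and 30 UMIs, and 2-fold was used as a size, not as a test. Where a level of summed RNA differs, fewer cells with the transcript and less transcript per cell cannot be told apart from the sum alone, so shares of cells are given beside it.

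LPS came with higher Socs1, Socs3, Jak2 and Il4ra and with lower Ifngr1, in both genotypes. Of the 8 members that could be compared, 4 were at least 2-fold higher after LPS and 1 at least 2-fold lower in the cells labelled Trpv4-null, and the same counts came out in wild-type cells. Over all genes, 7.3% of 6340 were 2-fold higher and 21.3% 2-fold lower after LPS in the cells labelled Trpv4-null, and in wild-type cells 6.9% and 17.7% of 6332. The median log2 ratio of the compared members was 0.76 in the cells labelled Trpv4-null and 0.84 in wild-type cells, against -0.42 and -0.39 over all genes compared. Socs2 and Cish stayed under 20 CPM in every library. Between the genotypes, no member that could be compared reached 2-fold.

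**Figure D1:**
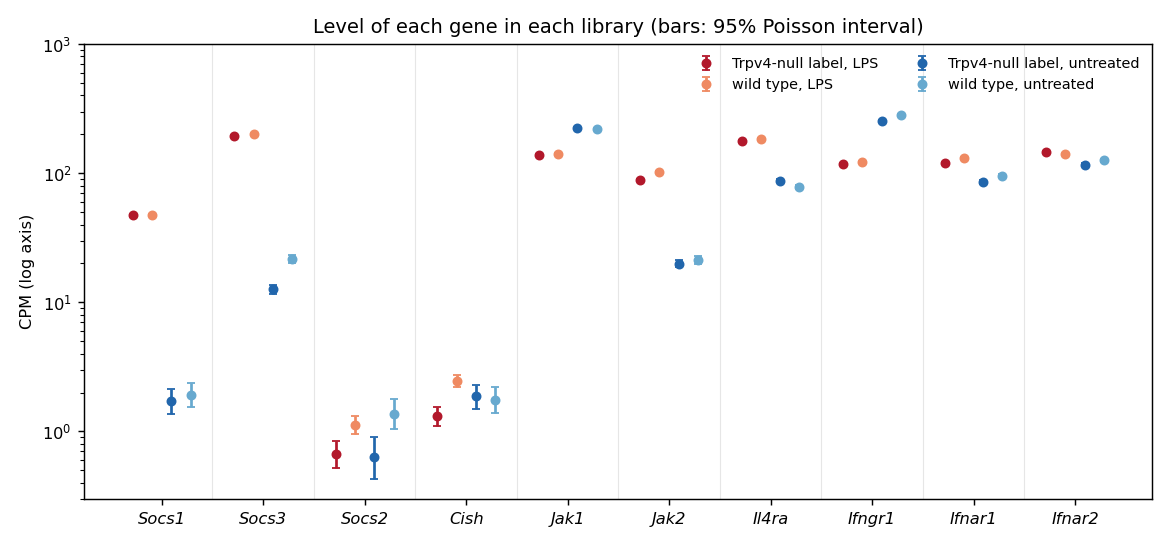
Level of each of the 10 members in the 4 libraries, in CPM on a log axis, with exact Poisson 95% intervals as bars that cover counting error only. Socs1, Socs3, Jak2 and Il4ra lie higher in both LPS libraries, Ifngr1 and Jak1 lie lower there, and Socs2 and Cish lie between 0.638 and 2.44 CPM throughout.

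Socs1 (chr16:10782240-10785536, minus strand, GRCm38 with GENCODE gene bounds here and below) binds and inhibits JAKs directly and is a main brake on interferon signalling. It had 47.2 CPM in LPS cells labelled Trpv4-null and 47.4 CPM in LPS wild-type cells, against 1.72 CPM in untreated cells labelled Trpv4-null and 1.92 CPM in untreated wild-type cells. Both LPS libraries were thus high and both untreated libraries low, with the genotypes side by side. The LPS ratio was 27.4 (95% interval 22.0 to 34.6) in the cells labelled Trpv4-null, a log2 ratio of 4.15, and 24.7 (19.9 to 31.0) in wild-type cells, a log2 ratio of 4.05. In the cells labelled Trpv4-null, 98.99% of the compared genes had a lower log2 LPS ratio than Socs1. The ratio of the label Trpv4-null to wild type was 0.997 (0.961 to 1.03) after LPS and 0.897 (0.653 to 1.23) in untreated cells, where the counts were 81 and 84 UMIs.

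Socs3 (chr11:117966079-117970047, minus strand) blocks JAKs bound to gp130 and related receptors, and so limits the response to IL-6. It had 194 CPM in LPS cells labelled Trpv4-null and 202 CPM in LPS wild-type cells, against 12.7 CPM in untreated cells labelled Trpv4-null and 21.7 CPM in untreated wild-type cells. The LPS libraries lay close together, while the untreated libraries were apart. The LPS ratio was 15.3 (14.1 to 16.6) in the cells labelled Trpv4-null and 9.34 (8.75 to 9.97) in wild-type cells, log2 ratios of 3.83 and 3.17.

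Cish (chr9:107296026-107302784, plus strand), the founding member of the family and a target of STAT5, had 1.31 CPM in LPS cells labelled Trpv4-null, 2.44 CPM in LPS wild-type cells, 1.87 CPM in untreated cells labelled Trpv4-null and 1.76 CPM in untreated wild-type cells, from 143, 352, 88 and 77 UMIs. The LPS wild-type library was the highest and the LPS library labelled Trpv4-null the lowest. Socs2 (chr10:95385362-95417180, minus strand), best known as a brake on growth hormone signalling, had 0.670 CPM in LPS cells labelled Trpv4-null, 1.12 CPM in LPS wild-type cells, 0.638 CPM in untreated cells labelled Trpv4-null and 1.37 CPM in untreated wild-type cells, from 73, 162, 30 and 60 UMIs. Both libraries labelled Trpv4-null were lower than both wild-type libraries. For Socs2, the interval of the LPS ratio held 1 in both genotypes, with a ratio of 1.05 (0.677 to 1.66) in the cells labelled Trpv4-null and 0.819 (0.606 to 1.12) in wild-type cells.

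The promoters of the 3 SOCS members that matched a RefSeq entry are shown because Socs1 and Socs3 were high after LPS while Cish was not. RefSeq promoter windows on GRCm38.p6, 250 bases before to 50 bases after the start, were found for 9 of the 10 members, all but Socs2. Both strands were searched for TTCNNNGAA (a STAT binding motif), for GAAA followed after any 2 bases by GAAA (an interferon-stimulated response element) and for GGGA followed after any 2 bases by TTCC (an NF-kB motif). Capitals mark the matches. The RefSeq starts of Socs3 and Cish lie inside the longer GENCODE gene bounds given above. The first and second lines give the 250 bases before the start of Socs1 (chr16:10785537-10785786, minus strand) and Socs3 (chr11:117969367-117969616, minus strand), and the third the 20 bases that hold both Cish matches (chr9:107296659-107296678, plus strand).
Socs1: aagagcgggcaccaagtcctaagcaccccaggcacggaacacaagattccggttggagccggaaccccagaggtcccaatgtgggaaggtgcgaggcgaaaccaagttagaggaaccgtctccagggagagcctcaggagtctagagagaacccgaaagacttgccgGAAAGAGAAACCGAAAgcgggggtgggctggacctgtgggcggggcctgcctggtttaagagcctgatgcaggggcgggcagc
Socs3: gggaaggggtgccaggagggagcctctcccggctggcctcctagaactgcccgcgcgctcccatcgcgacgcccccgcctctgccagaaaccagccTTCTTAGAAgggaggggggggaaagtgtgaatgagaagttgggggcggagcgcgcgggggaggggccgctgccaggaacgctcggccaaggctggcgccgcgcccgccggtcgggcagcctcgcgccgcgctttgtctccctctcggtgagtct
Cish: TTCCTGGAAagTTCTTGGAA

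The Socs1 window held 2 overlapping matches to the response element, at bases 168 to 177 and 174 to 183 of the window, the first of them starting 83 bases before the gene start. Such a match was present in 3.44% of 32851 promoter windows. Socs3 had 1 match to the STAT motif, at bases 97 to 105, and Cish had 2, at bases 251 to 259 and 262 to 270, just after the start. Ifnar1 and Ifnar2 had 1 STAT match each. The STAT motif was present in 8.30% of all windows. The NF-kB motif, which 1.47% of windows held, had no match in the 9 windows. These matches describe letters, and binding was not measured.

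The kinases differed in direction. Jak2 (chr19:29251828-29313080, plus strand), which serves the interferon-gamma receptor together with Jak1 as well as the receptors for GM-CSF and IL-3, had 88.1 CPM in LPS cells labelled Trpv4-null and 102 CPM in LPS wild-type cells, against 19.9 CPM in untreated cells labelled Trpv4-null and 21.3 CPM in untreated wild-type cells. Both LPS libraries were high, the wild-type one the higher of them. The LPS ratio was 4.43 (4.14 to 4.74) in the cells labelled Trpv4-null and 4.79 (4.48 to 5.12) in wild-type cells, log2 ratios of 2.09 and 2.21. Jak1 (chr4:101152367-101265282, minus strand), which serves interferon receptors, common gamma chain receptors and gp130, had 138 CPM in LPS cells labelled Trpv4-null and 141 CPM in LPS wild-type cells, against 223 CPM in untreated cells labelled Trpv4-null and 220.4 CPM in untreated wild-type cells. Raver2, which overlaps Jak1 on the opposite strand, had at most 15 UMIs in a library. Jak1 was lower after LPS in both genotypes, at ratios of 0.620 (0.605 to 0.636) in the cells labelled Trpv4-null and 0.641 (0.625 to 0.656) in wild-type cells. That difference was under 2-fold, and it nearly closed under another scaling, as given below.

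Among the receptor chains, Il4ra (chr7:125552120-125579474, plus strand), the signalling chain for IL-4 and IL-13, had 178 CPM in LPS cells labelled Trpv4-null and 184 CPM in LPS wild-type cells, against 87.3 CPM in untreated cells labelled Trpv4-null and 78.4 CPM in untreated wild-type cells. The LPS libraries were the higher ones, with ratios just past 2-fold. They were 2.04 (1.98 to 2.11) in the cells labelled Trpv4-null and 2.35 (2.27 to 2.44) in wild-type cells. Ifngr1 (chr10:19591949-19610229, plus strand), the ligand-binding chain of the interferon-gamma receptor, ran the other way. It had 119 CPM in LPS cells labelled Trpv4-null and 123 CPM in LPS wild-type cells, against 253 CPM in untreated cells labelled Trpv4-null and 280.0 CPM in untreated wild-type cells. The untreated libraries were the high ones, and the LPS ratio was 0.468 (0.457 to 0.480) in the cells labelled Trpv4-null and 0.438 (0.428 to 0.448) in wild-type cells, log2 ratios of -1.09 and -1.18. Those log2 ratios lay above 18.3% and 12.4% of all genes compared in the cells labelled Trpv4-null and in wild-type cells.

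The chains of the type I interferon receptor had small LPS ratios. Ifnar1 (chr16:91485238-91507441, plus strand) had 120.1 CPM in LPS cells labelled Trpv4-null and 131 CPM in LPS wild-type cells, against 85.1 CPM in untreated cells labelled Trpv4-null and 95.6 CPM in untreated wild-type cells. Its LPS ratio was 1.41 (1.36 to 1.46) in the cells labelled Trpv4-null and 1.37 (1.32 to 1.42) in wild-type cells. Ifnar2 (chr16:91372783-91405589, plus strand) had 145 CPM in LPS cells labelled Trpv4-null and 141 CPM in LPS wild-type cells, against 117 CPM in untreated cells labelled Trpv4-null and 126 CPM in untreated wild-type cells. Both chains were higher after LPS, each under 2-fold, and the Ifnar2 ratio was 1.24 (1.21 to 1.28) in the cells labelled Trpv4-null and 1.12 (1.08 to 1.15) in wild-type cells.

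The lower values need to be read with the scaling. The median gene stood at a log2 LPS ratio of -0.42 in the cells labelled Trpv4-null and -0.39 in wild-type cells when scaled by library totals. With median-of-ratios factors that median was 0.25 in the cells labelled Trpv4-null and 0.19 in wild-type cells. Of the genes at 2-fold or more, 69.5% and 68.8% were then higher after LPS, where library totals gave 25.6% and 28.0%. Ifngr1 then had log2 ratios of -0.48 in the cells labelled Trpv4-null and -0.65 in wild-type cells, no longer 2-fold, and Jak1 -0.08 and -0.11. Socs1, Socs3, Jak2 and Il4ra were at least 2-fold higher there too in both genotypes, and Ifnar1 reached a log2 ratio of 1.10 in the cells labelled Trpv4-null and 0.98 in wild-type cells.

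**Figure D2:**
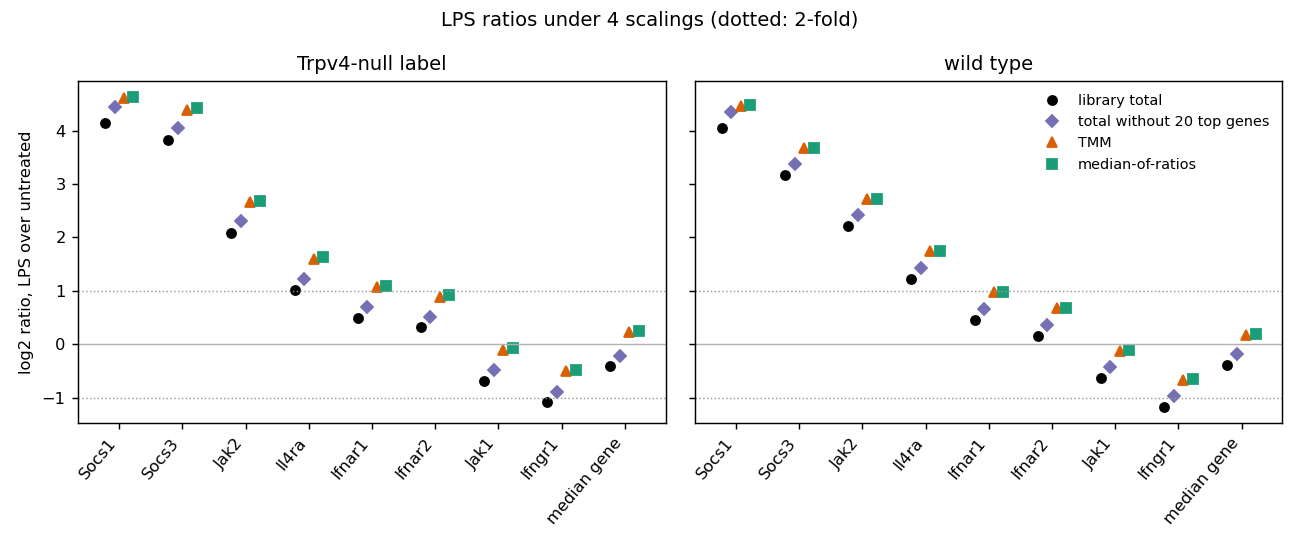
Log2 LPS ratio of the members other than Socs2 and Cish, and of the median gene, in the cells labelled Trpv4-null and in wild-type cells. The scalings are library total, median-of-ratios factors, TMM factors and totals without the 20 genes with most UMIs. The ratios of Ifngr1 and Jak1 lie below 0 under every scaling shown, and those of Ifngr1 pass 2-fold only with library totals.

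Per cell, the differences after LPS were carried by many cells. Cells were thinned to 3000 UMIs to make the libraries alike in depth, which left 6472 LPS cells labelled Trpv4-null, 8166 LPS wild-type cells, 5276 untreated cells labelled Trpv4-null and 6362 untreated wild-type cells. Socs3 was then found in 40.6% of LPS cells labelled Trpv4-null and 42.5% of LPS wild-type cells, against 3.83% of untreated cells labelled Trpv4-null and 5.39% of untreated wild-type cells. Without thinning, these shares were 83.5% and 84.9% after LPS against 8.57% and 10.1% untreated, in the same order of genotype. Socs1 was found in 11.6% of thinned LPS cells labelled Trpv4-null and 11.1% of LPS wild-type cells, against 0.246% and 0.424% of untreated cells labelled Trpv4-null and wild type. Unthinned, the Socs1 shares were 39.2% and 40.7% after LPS against 1.28% and 0.911% untreated. Both genes were thus seen in a larger share of cells after LPS than untreated, in either genotype and at either depth.

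Jak2 was found in 23.0% of thinned LPS cells labelled Trpv4-null and 25.3% of LPS wild-type cells, against 5.71% and 6.15% of untreated cells labelled Trpv4-null and wild type. Il4ra was found in 37.5% and 39.5% of LPS cells labelled Trpv4-null and wild type, against 22.7% and 20.8% of untreated ones. Ifngr1 was found in 31.4% and 30.9% of LPS cells labelled Trpv4-null and wild type, against 52.8% and 56.0% of untreated ones. Cish was found in 0.294% (0.177 to 0.458) of thinned LPS cells labelled Trpv4-null and 0.710% (0.540 to 0.917) of LPS wild-type cells, against 0.682% (0.478 to 0.943) and 0.550% (0.383 to 0.764) of untreated cells labelled Trpv4-null and wild type. The shares of Socs2 were between 0.185% and 0.330%, with intervals that overlap between all 4 libraries. No group of cells known to lack these genes was set apart here, so the share that free RNA alone would give was not measured.

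**Figure D3:**
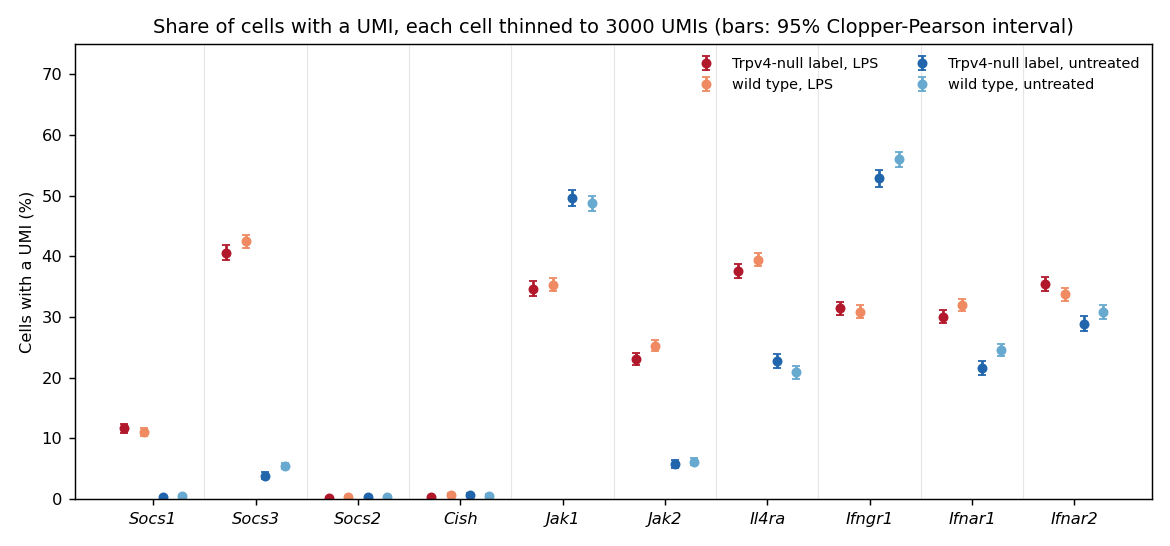
Share of cells with at least 1 UMI of each member after thinning every cell to 3000 UMIs, with exact 95% binomial intervals that cover counting error only. Socs3 reaches 40.6% and 42.5% in the LPS libraries labelled Trpv4-null and wild type, while Ifngr1, at 52.8% and 56.0%, and Jak1, at 49.6% and 48.7%, have their higher shares in the untreated libraries labelled Trpv4-null and wild type.

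The spread between cells differed among the members. In thinned cells, counting alone gives a ratio of variance to mean near 1. Jak1 had 1.01 in both LPS libraries. Il4ra had 1.38 in LPS cells labelled Trpv4-null and 1.27 in LPS wild-type cells. Untreated cells labelled Trpv4-null and wild type had 1.05 and 1.07, so for Il4ra this ratio was higher after LPS. Socs1 had 1.33 and 1.25 in LPS cells labelled Trpv4-null and wild type. Socs3 had 1.44 in untreated wild-type cells, its highest value, and 1.16 in untreated cells labelled Trpv4-null, 1.22 in LPS cells labelled Trpv4-null and 1.20 in LPS wild-type cells. The most UMIs of a member in 1 cell, without thinning, were 29 and 37 for Il4ra in the LPS libraries labelled Trpv4-null and wild type. Il4ra had at most 7 in each untreated library, where cells had fewer UMIs. The 1% of thinned cells with most Il4ra held 8.43% and 7.73% of its UMIs in LPS cells labelled Trpv4-null and wild type. In untreated cells they held 9.16% and 9.58%. That share also depends on the mean, since by counting alone it falls as the mean rises. The mean was 0.548 and 0.566 Il4ra UMIs per thinned LPS cell labelled Trpv4-null and wild type, against 0.265 and 0.243 untreated. The share therefore cannot say whether Il4ra was more or less concentrated after LPS.

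Members rarely kept company within a cell beyond what their shares give. For the 28 pairs of the 8 members other than Socs2 and Cish, the share of thinned cells with both genes was divided by the product of the single shares. This quotient ran from 0.911 to 1.12 in LPS cells labelled Trpv4-null and from 0.954 to 1.13 in LPS wild-type cells. The pair with the highest quotient was Socs1 with Jak2 in both LPS libraries. In untreated cells the quotient ran from 0 to 1.35 in cells labelled Trpv4-null and from 0.533 to 1.12 in wild-type cells. Both of those lowest values were of pairs with Socs1, which few untreated cells held. The interval of the quotient held 1 for 27 of 28 pairs in the LPS library labelled Trpv4-null, and for all 28 pairs in each of the other 3 libraries. The exception was Jak2 with Il4ra, which lay below 1, at 0.917 (0.843 to 0.997). At 3000 UMIs per cell most transcripts of a cell go unseen, which draws such quotients towards 1.

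The authors named 9 clusters of cells, and 8 of them had at least 100 cells in every library. These clusters were built from the same counts, so levels across them are a description. The LPS difference of the members was present across the 8 clusters. Socs1, Socs3 and Jak2 were at least 2-fold higher after LPS in 8 of 8 clusters in both genotypes. Il4ra was higher in all 8, at least 2-fold in 5 of 8 clusters of cells labelled Trpv4-null and 7 of 8 of wild-type cells. Ifngr1 was lower in all 8, at least 2-fold in 6 of 8 in either genotype. Jak1 was lower and Ifnar1 higher in 8 of 8 clusters of both genotypes, all under 2-fold. Ifnar2 was higher in 8 of 8 clusters of cells labelled Trpv4-null and in 6 of 8 of wild-type cells.

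**Figure D4:**
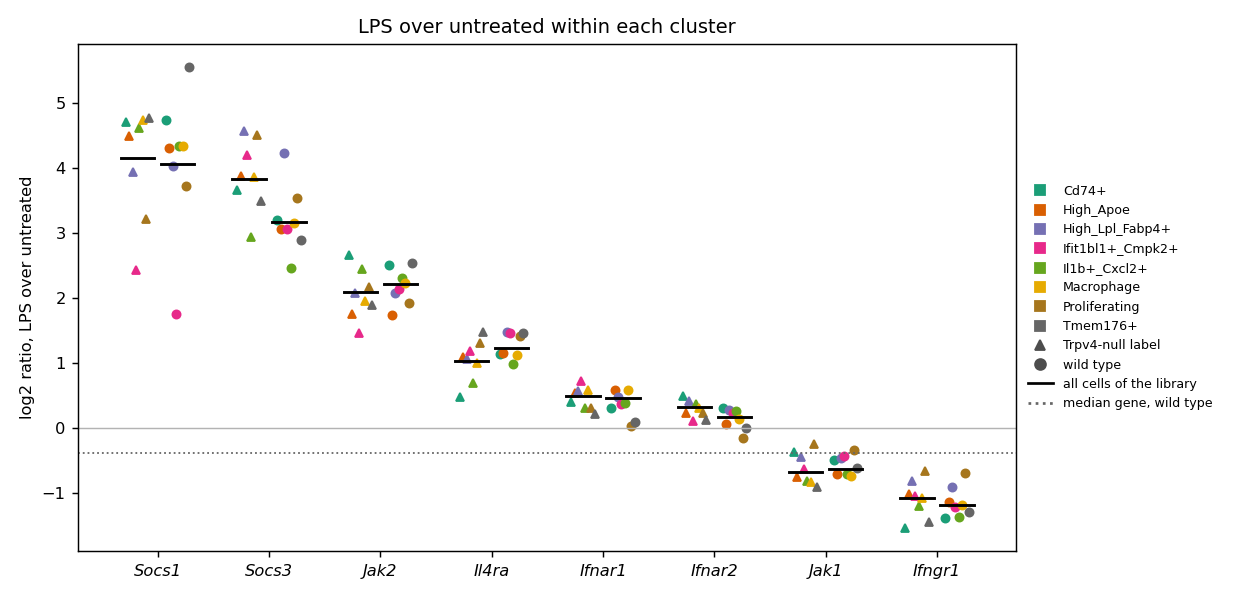
Log2 LPS ratio of the members other than Socs2 and Cish in each of the 8 clusters, for cells labelled Trpv4-null and for wild-type cells. The points of Socs1, Socs3, Jak2 and Il4ra lie above 0 in all 8 clusters of both genotypes, by library totals. Those of Ifngr1 and Jak1 lie below 0 in all 8. Points that rest on 0 to 3 untreated UMIs, as for Socs1 in Tmem176+ cells, depend on the added 1 CPM.

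Socs1 followed the cluster that the authors named Ifit1bl1+_Cmpk2+, after a pair of interferon-induced genes. There it had 102 CPM in LPS cells labelled Trpv4-null and 107 CPM in LPS wild-type cells, against 18.2 CPM in untreated cells labelled Trpv4-null and 31.4 CPM in untreated wild-type cells. That was its highest level in each of the 4 libraries, with intervals clear of the next cluster. The next after LPS was Cd74+, at 64.7 CPM in cells labelled Trpv4-null and 70.6 CPM in wild-type cells, and the lowest were High_Apoe at 30.9 CPM in LPS cells labelled Trpv4-null and High_Lpl_Fabp4+ at 33.6 CPM in LPS wild-type cells. In untreated cells, the Ifit1bl1+_Cmpk2+ cluster held 38.3% of all Socs1 UMIs with 3.62% of all UMIs in the library labelled Trpv4-null, and 46.4% with 2.84% in the wild-type library. These were 31 of 81 and 39 of 84 Socs1 UMIs. The log2 LPS ratio of Socs1 was smallest in that cluster, at 2.42 in cells labelled Trpv4-null and 1.74 in wild-type cells. In Tmem176+ cells Socs1 had 246 and 380 UMIs in the LPS libraries labelled Trpv4-null and wild type, against 1 and 0 UMIs in the untreated ones, too few for a ratio to be sized.

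Socs3 was uneven over the clusters before LPS and even after it. In untreated cells its highest level was in Il1b+_Cxcl2+, named for genes of the inflammatory response, at 25.8 CPM in cells labelled Trpv4-null and 38.6 CPM in wild-type cells. The lowest was in High_Lpl_Fabp4+, at 6.22 CPM in untreated cells labelled Trpv4-null and 8.68 CPM in untreated wild-type cells. After LPS the highest cluster exceeded the lowest by 1.24 times in cells labelled Trpv4-null and 1.22 times in wild-type cells, against 4.15 and 4.45 times in the untreated libraries labelled Trpv4-null and wild type. The log2 LPS ratio of Socs3 accordingly ran from 2.94 in Il1b+_Cxcl2+ to 4.56 in High_Lpl_Fabp4+ in cells labelled Trpv4-null, and from 2.45 to 4.22 in the same clusters of wild-type cells.

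Il4ra after LPS was highest in Tmem176+ cells, at 248 CPM in cells labelled Trpv4-null and 251 CPM in wild-type cells, and lowest in Cd74+ cells, named for the MHC class II invariant chain, at 107 CPM and 129 CPM in cells labelled Trpv4-null and wild type. Jak2 after LPS was highest in Cd74+ cells, where Il4ra was lowest, at 111 CPM in cells labelled Trpv4-null and 129 CPM in wild-type cells. The lowest Jak2 levels after LPS were in High_Apoe, at 69.7 CPM in cells labelled Trpv4-null and 76.9 CPM in wild-type cells. The Cd74+ level of Jak2 was not separated from that of Il1b+_Cxcl2+ by its counting interval in either LPS library.

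Ifngr1 after LPS was lowest in the Ifit1bl1+_Cmpk2+ cluster, at 89.5 CPM in cells labelled Trpv4-null and 98.7 CPM in wild-type cells. This was the cluster in which Socs1 was highest. In untreated cells Ifngr1 was lowest in proliferating cells, at 176 CPM in cells labelled Trpv4-null and 192 CPM in wild-type cells. Ifnar1 was lowest in proliferating cells in all 4 libraries, at 80.2 CPM in LPS cells labelled Trpv4-null, 82.0 CPM in LPS wild-type cells, 65.1 CPM in untreated cells labelled Trpv4-null and 80.5 CPM in untreated wild-type cells. Jak1 was lowest there as well, at 115 CPM in both LPS libraries, against 138 CPM in untreated cells labelled Trpv4-null and 147 CPM in untreated wild-type cells. For Ifnar1 and Ifngr1 in both untreated libraries, the counting interval of the lowest cluster overlapped that of another cluster. The same held for Ifngr1 and Jak1 in the LPS library labelled Trpv4-null. The highest cluster of Ifnar2 was at most 1.37 times its lowest in any library.

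**Figure D5:**
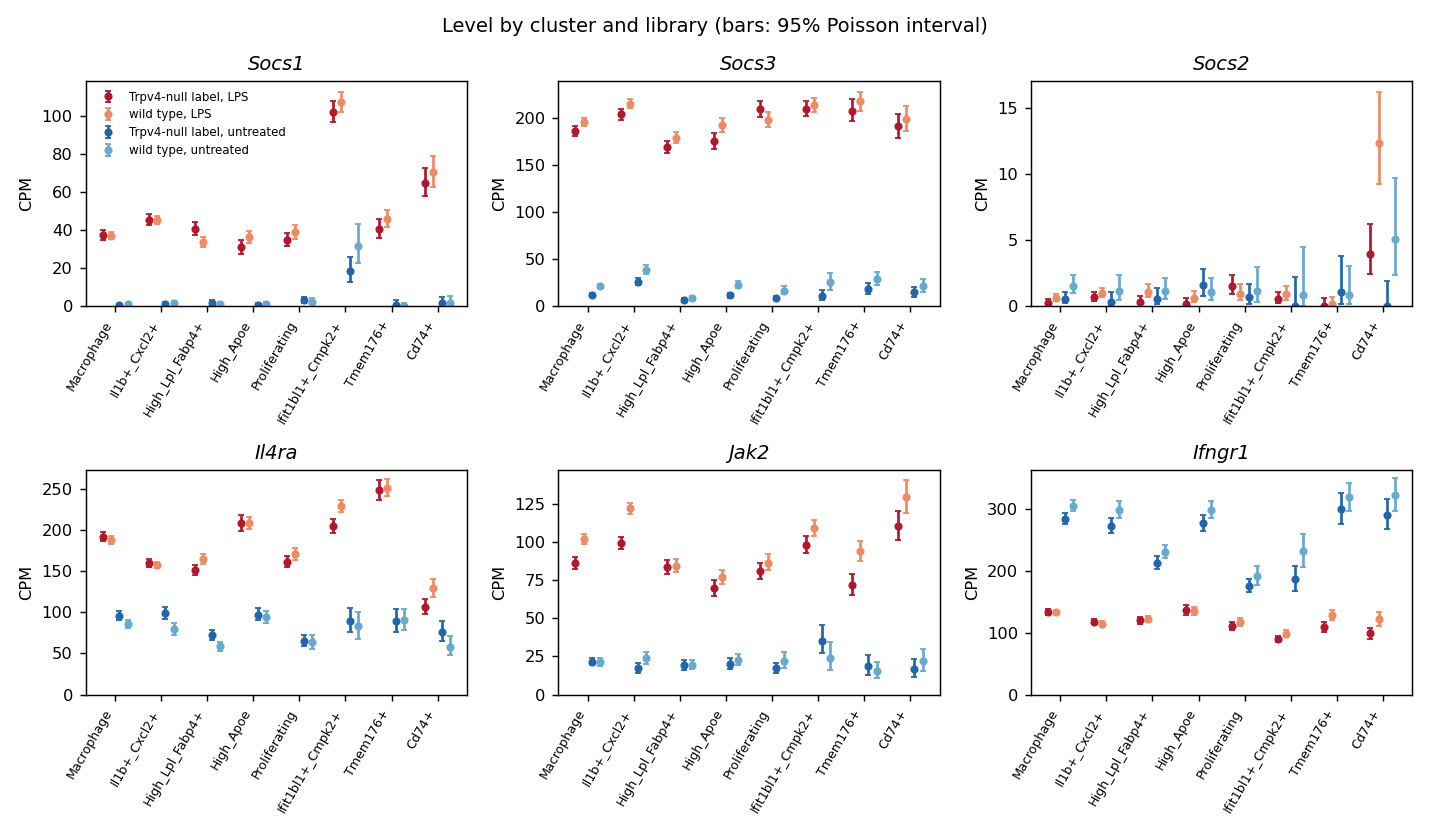
Level of Socs1, Socs3, Socs2, Il4ra, Jak2 and Ifngr1 in each of the 8 clusters and 4 libraries, in CPM with exact Poisson 95% intervals that cover counting error only. Socs1 peaks in the Ifit1bl1+_Cmpk2+ cluster in all 4 libraries, and Socs2 stands at 12.4 CPM in Cd74+ cells of the LPS wild-type library.

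Socs2 was highest in the Cd74+ cluster in 3 of 4 libraries. It had 3.95 CPM there in LPS cells labelled Trpv4-null, 12.4 CPM in LPS wild-type cells and 5.09 CPM in untreated wild-type cells, from 19, 52 and 9 UMIs, while no UMI was found in the 203 untreated Cd74+ cells labelled Trpv4-null, where the exact interval reaches 1.88 CPM. The Cd74+ cluster held 32.1% of the Socs2 UMIs with 2.92% of all UMIs in the LPS wild-type library, and 26.0% with 4.41% in the LPS library labelled Trpv4-null. By counting error alone, the Cd74+ interval was clear of the next cluster in both LPS libraries. Its lower bound was 2.38 CPM in LPS cells labelled Trpv4-null, against an upper bound of 2.32 CPM in proliferating cells. In LPS wild-type cells these bounds were 9.23 CPM and, in High_Lpl_Fabp4+, 1.65 CPM. The intervals take UMIs as independent, but 5 cells held the 19 UMIs and 13 cells the 52. The narrow gap in cells labelled Trpv4-null therefore cannot show that Cd74+ stood apart there. In untreated cells the highest and second clusters had overlapping intervals in both genotypes, and Cd74+ held 9 of 60 Socs2 UMIs in the wild-type library, where the cluster named Macrophage held 21. For Cish, the highest and second clusters had overlapping intervals in all 4 libraries.

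Between the genotypes few genes of any kind differed by 2-fold. After LPS, none of the 8 members compared was 2-fold higher or lower in cells labelled Trpv4-null than in wild-type cells, where over all 5236 genes 0.134% were higher and 0.0573% lower. In untreated cells none of the 7 members compared reached 2-fold either, where 0.146% of 6156 genes were higher and 0.146% lower. Against shares that small, counts of 0 among 8 and 7 members say nothing particular of these genes. The median log2 ratio of the members was -0.05 after LPS and -0.11 untreated, against -0.04 and -0.02 over all genes compared. After LPS the interval of the ratio held 1 for Socs1 and for Jak1, at 0.980 (0.960 to 1.001). Jak2 stood at 0.865 (0.843 to 0.887) and Ifnar1 at 0.916 (0.896 to 0.937), and both were lower in 8 of 8 clusters of LPS cells labelled Trpv4-null. The small after-LPS ratios of Socs1, Socs3, Jak1, Il4ra and Ifngr1 took the other sign with median-of-ratios or TMM factors.

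Socs3 in untreated cells was the member with the most distinct genotype ratio among those compared. As given above it had 12.7 CPM in untreated cells labelled Trpv4-null and 21.7 CPM in untreated wild-type cells, a ratio of 0.585 (0.527 to 0.648) and a log2 ratio of -0.73. Of all genes compared, 0.374% had a lower log2 ratio. It was lower in 8 of 8 clusters, from a log2 ratio of -1.16 in Ifit1bl1+_Cmpk2+ to -0.42 in High_Lpl_Fabp4+. The difference of the log2 LPS ratios, the label Trpv4-null minus wild type, was 0.67 for Socs3, above 98.7% of 6471 genes, and it uses the same untreated libraries.

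Other transcripts moved with that Socs3 value. A list of 10 immediate-early genes (Fos, Fosb, Jun, Junb, Egr1, Dusp1, Atf3, Ier2, Zfp36 and Btg2), taken after earlier results of these data were seen, summed to 1238 CPM in untreated cells labelled Trpv4-null and 2267 CPM in untreated wild-type cells, and all 10 were lower in the cells labelled Trpv4-null. The sum was also lower in each of the 8 clusters, for example 1683 CPM in untreated Il1b+_Cxcl2+ cells labelled Trpv4-null and 3006 CPM in untreated wild-type cells of that cluster. The 7 neutrophil markers in the table summed to 336 CPM in untreated cells labelled Trpv4-null and 186 CPM in untreated wild-type cells. Their part in the Socs3 value was not tested.

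Cish after LPS, and Socs2 both after LPS and untreated, had lower genotype ratios, from few UMIs. After LPS, Cish stood at 0.537 (0.439 to 0.654) in cells labelled Trpv4-null relative to wild type and was lower in 8 of 8 clusters, while in untreated cells its ratio was 1.06 (0.774 to 1.46). Socs2 stood at 0.596 (0.445 to 0.790) after LPS and at 0.465 (0.290 to 0.733) in untreated cells. Without the Cd74+ cluster, an alternative added after seeing the data, the Socs2 ratios were 0.659 (0.467 to 0.921) after LPS and 0.548 (0.337 to 0.877) in untreated cells. Among the receptor chains in untreated cells, Il4ra stood at 1.11 (1.06 to 1.17), Ifngr1 at 0.904 (0.881 to 0.927), Ifnar1 at 0.890 (0.852 to 0.929) and Ifnar2 at 0.926 (0.892 to 0.961). Ratios of that size are within the range of most genes, 97.4% of which lay within 0.5 of 0 on the log2 scale in untreated cells.

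The genes whose levels ran most like those of a member were ranked by Pearson's r over 32 profiles, 8 clusters in 4 libraries, which share libraries and depth. For Socs1 these were Helz2 at 0.986, Ifi205 at 0.985 and Phf11a at 0.984. For Socs3 they were Nfkbia, the NF-kB inhibitor, at 0.982, Vasp at 0.976 and Gpr84 at 0.975. With each library's mean removed, r with Socs1 was 0.943 for Helz2, 0.927 for Ifi205 and 0.926 for Phf11a. With Socs3 it was then 0.763 for Nfkbia, 0.525 for Vasp and 0.585 for Gpr84. For Il4ra the closest were Aoah, an enzyme that detoxifies LPS, at 0.932, Aif1 at 0.924 and Lst1 at 0.923. With library means removed these were 0.593, 0.582 and 0.607, so much of the likeness lay between libraries. For Socs2 the highest was Serf1 at 0.628 and for Cish it was Cd33 at 0.620, low values from sparse counts. Between Socs1 and Socs3, r was 0.865 over all profiles and -0.07 with library means removed, so the likeness was one between libraries, not between clusters within a library. Between Socs1 and Jak2 it was 0.938 and 0.62.

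The rest of the pathway was counted in lists, described here beside the share of all genes given above. Of the 8 SOCS family genes, 5 could be compared after LPS. In both genotypes Socs1 and Socs3 were 2-fold higher and Socs6 was 2-fold lower. Socs6 had 16.6 CPM in LPS cells labelled Trpv4-null and 17.5 CPM in LPS wild-type cells, against 102 CPM in untreated cells labelled Trpv4-null and 101 CPM in untreated wild-type cells, log2 LPS ratios of -2.56 and -2.47. It remained 2-fold lower with median-of-ratios factors, at -1.97 and -1.95. Socs6 was thus opposite in direction to Socs1 and Socs3 within the family. Of 3 JAK genes compared, Jak2 alone passed 2-fold, and Tyk2, the kinase held by Ifnar1, had log2 LPS ratios of -0.25 in cells labelled Trpv4-null and -0.18 in wild-type cells. Of 4 interferon receptor genes compared, Ifngr1 alone passed 2-fold with library totals, and it was lower. With median-of-ratios factors 2 were 2-fold higher and 0 lower in cells labelled Trpv4-null, and with TMM factors 1 was higher and 0 lower, while in wild-type cells none passed 2-fold with either. Ifngr2, the partner chain of Ifngr1, had 182 CPM in LPS cells labelled Trpv4-null and 178 CPM in LPS wild-type cells, against 138 CPM in untreated cells labelled Trpv4-null and 147 CPM in untreated wild-type cells, so the chains of that receptor differed in direction with library totals.

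Among the STATs reported here, Stat2, a part of the complex that type I interferon activates, was 2-fold higher after LPS in both genotypes. It had 234 CPM in LPS cells labelled Trpv4-null and 223 CPM in LPS wild-type cells, against 39.2 CPM in untreated cells labelled Trpv4-null and 32.6 CPM in untreated wild-type cells. Stat2 had log2 LPS ratios of 2.55 in cells labelled Trpv4-null and 2.74 in wild-type cells. Stat3 and Stat6, which relay IL-6 or IL-10 and IL-4, had log2 LPS ratios of 0.06 and -0.41 in cells labelled Trpv4-null and 0.16 and -0.47 in wild-type cells. Of 12 other inhibitors of the pathway compared, Usp18, which holds back signalling at Ifnar2, stood out with 258 CPM in LPS cells labelled Trpv4-null and 226 CPM in LPS wild-type cells, against 11.9 CPM in untreated cells labelled Trpv4-null and 8.55 CPM in untreated wild-type cells. In the same list, the phosphatase Ptpn6 also passed 2-fold in cells labelled Trpv4-null, at a log2 ratio of 1.04, and had 0.85 in wild-type cells. Sh2b3 was 2-fold lower in both genotypes, Pias2 in cells labelled Trpv4-null and Cblb in wild-type cells, and with median-of-ratios factors none of these remained 2-fold lower.

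The common gamma chain list was mostly higher after LPS. Of 5 compared, Il4ra, Il2rg and Il15ra were 2-fold higher and Il7r 2-fold lower in both genotypes. Il2rg, the common gamma chain that can pair with Il4ra, had 126 CPM in LPS cells labelled Trpv4-null and 107 CPM in LPS wild-type cells, against 29.9 CPM in untreated cells labelled Trpv4-null and 26.4 CPM in untreated wild-type cells. Il7r, the IL-7 receptor chain, had 23.7 CPM in LPS cells labelled Trpv4-null and 12.4 CPM in LPS wild-type cells, against 114 CPM in untreated cells labelled Trpv4-null and 127 CPM in untreated wild-type cells. Its log2 ratio between the genotypes after LPS was 0.88, under 2-fold. The list's median log2 LPS ratio was 1.02 in cells labelled Trpv4-null and 1.22 in wild-type cells, against -0.42 and -0.39 over all genes.

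The gp130, IL-10 and IL-12 receptor list was mostly lower after LPS. Of 6 compared in cells labelled Trpv4-null, 4 were 2-fold lower after LPS and none higher, and of 5 compared in wild-type cells, 3 were lower and none higher. Il6ra, the IL-6 receptor, had 36.7 CPM in LPS cells labelled Trpv4-null and 40.9 CPM in LPS wild-type cells, against 199 CPM in untreated cells labelled Trpv4-null and 189 CPM in untreated wild-type cells. Il6st, which encodes gp130, had log2 LPS ratios of -2.19 and -1.98 in cells labelled Trpv4-null and wild-type cells. Il10ra had -1.22 and -1.21, and it was no longer 2-fold lower with median-of-ratios factors, at -0.61 and -0.68. Il6ra and Il6st kept ratios beyond 2-fold there. Il6ra and Il6st were thus lower in the same libraries in which Socs3 was higher. Cytokine receptor genes did not all go that way, since Csf3r, given below, was higher there.

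Of the remaining lists, Csf3r, the G-CSF receptor, was the single 2-fold higher gene of 5 compared among the beta common and homodimeric receptors, at log2 LPS ratios of 1.33 in cells labelled Trpv4-null and 1.12 in wild-type cells. Ligands were scarce. Ifnb1, encoding interferon beta, had 6.5 CPM in LPS cells labelled Trpv4-null and 4.42 CPM in LPS wild-type cells, against no UMI in untreated cells labelled Trpv4-null and 0.0229 CPM (1 UMI) in untreated wild-type cells. Of 12 STAT6 targets of alternative activation, 1 was abundant enough to compare. This was Mrc1, the mannose receptor, at 51.4 CPM in LPS cells labelled Trpv4-null and 64.0 CPM in LPS wild-type cells, against 506 CPM in untreated cells labelled Trpv4-null and 511 CPM in untreated wild-type cells. Il4ra was higher in the same libraries. None of 8 adaptors and ubiquitin ligase parts compared passed 2-fold with library totals in either genotype. Between the genotypes, no gene that could be compared in any list reached 2-fold, after LPS or untreated.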

How the data were processed

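The authors deposited whole-number counts of UMIs per gene and cell, not normalized, and a cell annotation that gives, per the file headers, the UMI and gene counts of a cell, a ratio of log10 genes to log10 UMIs, the mitochondrial fraction, the library and the name of the authors' cluster. The submitters' processing notes name the genome build mm10, Seurat 4, Cell Ranger 3.1.0 and R 4.2, with no role given. How cells were filtered, whether doublets were removed and whether counting used strand is not stated. No doublets were removed here.

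UMIs were summed per library and scaled by the library total (109030958 UMIs in the LPS library labelled Trpv4-null, 144090985 in the LPS wild-type library, 47000669 in the untreated library labelled Trpv4-null and 43731003 in the untreated wild-type library). Log2 ratios used a pseudocount of 1 CPM, which understates ratios of low genes. Intervals are exact Poisson for CPM, exact conditional for ratios and Clopper-Pearson for shares, all 95% and for counting error only. With 1 library per group no p-value was computed. Named genes were the 10 members, up to 3 genes of each list with the largest ratio in a comparison, the 3 genes most like a member, and Trpv4. Not every gene picked this way is reported here. Stat3, Stat6, Ptpn6, Pias2, Ifnb1 and the markers fall outside that rule and were chosen after their values were seen. The members and lists were chosen with earlier results of these data known. The ratio step was tested on simulated counts. Gene bounds came from GENCODE release M21 on GRCm38 and promoter sequences from RefSeq on GRCm38.p6. Computation used scipy 1.17.1, numpy 2.4.6, matplotlib 3.10.9 and pandas 2.3.3 under Python 3.11.15. TMM factors came from edgeR 4.0.16 in R 4.3.3. Alternatives were other scalings, weightings, cell sets, pseudocounts and filters.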

Additional observations from a re-analysis of the deposited data

Results flagged for a closer look

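Cish stood out because its LPS ratios ran in opposite directions in the genotypes, at 0.70 (95% interval 0.533 to 0.924) in the cells labelled Trpv4-null and 1.39 (1.08 to 1.80) in wild-type cells. The difference between these ratios was not tested, since each group is 1 library, and the intervals cover counting error only. On the log2 scale the difference, the label Trpv4-null minus wild type, was -0.63, below which lay 0.834% of 6471 genes. The counts behind it were 143 and 352 UMIs in the LPS libraries labelled Trpv4-null and wild type and 88 and 77 UMIs in the untreated libraries labelled Trpv4-null and wild type. With median-of-ratios factors the log2 LPS ratio was 0.06 in the cells labelled Trpv4-null and 0.67 in wild-type cells, so the directions were then alike. Within clusters, the LPS ratio of Cish was below 1 in 5 of 8 clusters of cells labelled Trpv4-null and above 1 in 5 of 8 clusters of wild-type cells.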

How the results depend on the processing

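No paired analysis was possible because each group has 1 library, and for the same reason no replicate could be left out. The count of members at least 2-fold lower after LPS, 1 with library totals, was 0 in the cells labelled Trpv4-null and 0 in wild-type cells with median-of-ratios factors, with TMM factors and with totals that leave out the 20 genes with most UMIs. The gene lost was Ifngr1 each time. In these libraries each of those settings also raised the median log2 LPS ratio over all genes, in both genotypes. Over all genes, median-of-ratios factors gave 1031 genes 2-fold higher and 453 lower in the cells labelled Trpv4-null, with 463 and 1348 by totals, and 864 and 391 in wild-type cells, with 437 and 1121 by totals. TMM factors gave 986 and 466 in the cells labelled Trpv4-null and 848 and 392 in wild-type cells. The count of 2-fold higher members was 4 in wild-type cells under each alternative. In the cells labelled Trpv4-null it was 5 with median-of-ratios or TMM factors, which add Ifnar1, and 3 without the proliferating cluster, where Il4ra had a log2 ratio of 0.99. No alternative gave a 2-fold member between the genotypes by the log2 ratio with its pseudocount. The log2 genotype ratio of Socs3 in untreated cells ranged from -0.78 to -0.69. Socs1, Socs3, Jak2, Il4ra, Ifngr1 and Jak1 kept the direction of their LPS ratio in both genotypes under each alternative. Depth limits Socs2 and Cish most, with 30 to 352 UMIs per library.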

Other observations

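The Socs2 UMIs of the Cd74+ cluster sat in few cells. In the LPS library labelled Trpv4-null 5 cells held all 19 of them, with up to 9 in a cell, in the LPS wild-type library 13 cells held all 52, with up to 14 in a cell, and in the untreated wild-type library 5 cells held all 9. Ccr7, a chemokine receptor of migrating dendritic cells, had a UMI in 3 of the 5 Socs2-positive Cd74+ cells and in 2 of the 227 others in the LPS library labelled Trpv4-null. In the LPS wild-type library it had one in 8 of 13 and in 2 of 180, and in the untreated wild-type library in 3 of 5 and in 0 of 226. Zbtb46 had a UMI in 2 of 5 Socs2-positive and 1 of 227 other Cd74+ cells in the LPS library labelled Trpv4-null, in 2 of 13 and 4 of 180 in the LPS wild-type library, and in 1 of 5 and 3 of 226 in the untreated wild-type library. Irf8 was common in Cd74+ cells with and without Socs2, in 4 of 5 and 212 of 227, in 12 of 13 and 155 of 180, and in 3 of 5 and 184 of 226, in the same order of libraries. Flt3 had a UMI in 2 of the 13 in the LPS wild-type library and in none of the others with Socs2, and Xcr1, Clec9a, Cd209a and Siglech in none of the cells with Socs2. These cells were picked by the gene described, after its values were seen, so the counts are a description without a test and name no cell type.

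The cluster left out of the comparisons, High_Btg1, had 23 and 36 cells in the LPS libraries labelled Trpv4-null and wild type and 3 and 5 cells in the untreated libraries in the same order. After LPS its Ifngr1 level was 280.1 CPM (233 to 333) in cells labelled Trpv4-null and 354 CPM (309 to 403) in wild-type cells, above the highest of the 8 larger clusters, which was High_Apoe at 137 CPM in LPS cells labelled Trpv4-null and 134 CPM in LPS wild-type cells. Il4ra was at 345 CPM (292 to 403) in LPS cells of High_Btg1 labelled Trpv4-null and 279.9 CPM (240.3 to 324) in LPS wild-type cells of that cluster, beside 248 CPM and 251 CPM (240.7 to 262) in Tmem176+, its highest of the larger clusters, so the intervals overlapped in wild-type cells. Jak1, at 244.5 and 212 CPM, and Ifnar2, at 229 and 237 CPM, were above their highest larger cluster as well, which was Cd74+ at 150.5 and 147 CPM for Jak1 and at 160.1 and 168 CPM for Ifnar2, in LPS cells labelled Trpv4-null and wild type. With 23 and 36 cells these levels rest on few cells.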
